A study of Mus musculus with 6 samples.

Results

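Ionotropic glutamate receptor subunits were followed in whole brains of mice that lack the neural cell adhesion molecule NCAM. The set was 10 genes fixed by name: Gria1, Gria2, Gria3 and Gria4 of the AMPA class, Grin1, Grin2a and Grin2b of the NMDA class, and Grik1, Grik2 and Grik5 of the kainate class. Every probe set, a group of short oligonucleotides on the array that reads 1 transcript, was taken where the annotation gave 1 of these names as its single gene symbol. This found 15 probe sets of 9 genes, out of 8251 genes named by a single symbol. No probe set carried Grin1 as its single symbol, so this obligatory NMDA receptor subunit was not analysed here.

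RNA came from the total brain of 6 male C57BL/6J mice. The 3 knockout animals were -/- for a constitutive deletion of the Ncam gene, which is present in every cell throughout life, and the 3 wild-type animals were +/+ on the same background. In both genotypes replicates 1 and 2 were aged 2 months and replicate 3 was aged 3 months, and each animal had its own one-colour Affymetrix array. The comparison addresses which transcripts differ in the adult brain when NCAM is missing.

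Ionotropic glutamate receptors are ion channels that open when glutamate binds, and they carry most fast excitation between neurons of the brain. AMPA receptors give the rapid current, and the Gria2 subunit, whose transcript is edited at a site lining the pore, keeps most of them from passing calcium. NMDA receptors pair Grin1 with subunits of the Grin2 group, pass calcium and trigger lasting changes of synaptic strength, while kainate receptors tune release and excitability on both sides of the synapse.

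Ncam1 read 208.7 to 327.4 in the knockout and 1216 to 1448 in the wild-type animals by its brightest probe set, whose place relative to the deleted part is not known here. Pairwise correlations of the arrays over the 7453 tested probe sets, on the log2 scale, ran from 0.967 to 0.985. In this whole-brain RNA, knockout replicate 2 stood apart in genes of the cerebellum. The summed signal of 9 cerebellar marker genes was 1678 in this animal, between 7264 and 8198 in the other knockout animals and between 7672 and 8452 in the wild type. The signal of Gabra6, a GABA receptor subunit typical of granule cells in the cerebellum, was 11.8 there and 1254 to 1388 in the other animals. The same animal had the highest summed signal of 4 striatal marker genes, 6345 against 5232 to 5415 in the others. It also had the highest summed signal of 6 marker genes of hippocampus and cortex, at 4433 against 2845 to 3813. Of the striatal sum Penk gave 5570. By the brightest probe sets, Tbr1, Neurod6, Camk2a and Nrgn were highest in this animal. Prox1 was not, nor was Wfs1 (671.9, with 765.6 in wild-type replicate 1). Fewer cells of a type and less RNA per cell cannot be told apart in such bulk samples, and the differences of several subunits are also given without this animal. Knockout replicate 1 stood apart in the summed signal of 8 pituitary genes, 15820 against 985 to 1401 elsewhere. Of this sum Gh gave 11613, and not each gene stood apart (Ghrhr 155.3, with 159.7 in knockout replicate 3). The label of brain tissue was checked on 9 pan-neuronal genes, all bright enough to be tested, whose summed signals overlapped between the groups (26240 to 27100 for knockout animals, 26350 to 27710 for wild type). Sums of 8 oligodendrocyte and myelin genes (11890 to 13100 against 13500 to 14270) and of 9 astrocyte genes (14140 to 14910 against 15360 to 15820) were lower in each of the 3 knockout animals than in every wild-type one. Such sums weigh the brightest genes most. By tested gene, 5 means were lower and 2 higher in the first list, and 6 lower and 2 higher in the second. The astrocyte gene Gja1 was higher without overlap, at 3082 to 3528 in knockout against 2705 to 3075 in wild-type animals. The 3' to 5' signal ratio of a control gene is a sign of RNA quality. For Gapdh it lay between 0.811 and 0.826 in knockout animals and between 0.768 and 0.798 in the wild type. For actin the groups overlapped, at 1.14 to 1.22 in knockout animals and 1.08 to 1.2 in the wild type. The part of these differences in the receptor values was not tested, apart from the comparisons without knockout replicate 2.

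No receptor subunit passed the test across all probe sets, in which differences between genotypes are set against the spread between animals. Of the 15 probe sets 11, which read 6 genes, were bright enough to be tested (a mean log2 value equal to a signal of 72.2 or more), and 0 of them had an adjusted p under 0.05 in limma, where 0.0268% of all tested probe sets did. At an unadjusted p under 0.05 in limma, 2 receptor probe sets were higher in knockout brains, 1 of Gria2 and 1 of Grik5, and 0 were lower. Over all tested probe sets 3.26% were higher and 3.68% lower at that threshold. The groups were fully separated for 1 of the 11, a Gria2 probe set that was higher in knockout brains, where 6.08% of all tested probe sets were separated upward and 6.80% downward. Of the 11, 9 had a higher mean in knockout brains, against 50.4% of all tested probe sets, but several of the 11 read the same gene, and without knockout replicate 2 the number was 7. Adjusted p values of the 11 ranged from 0.548 to 0.994 in limma.

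**Figure D1:**
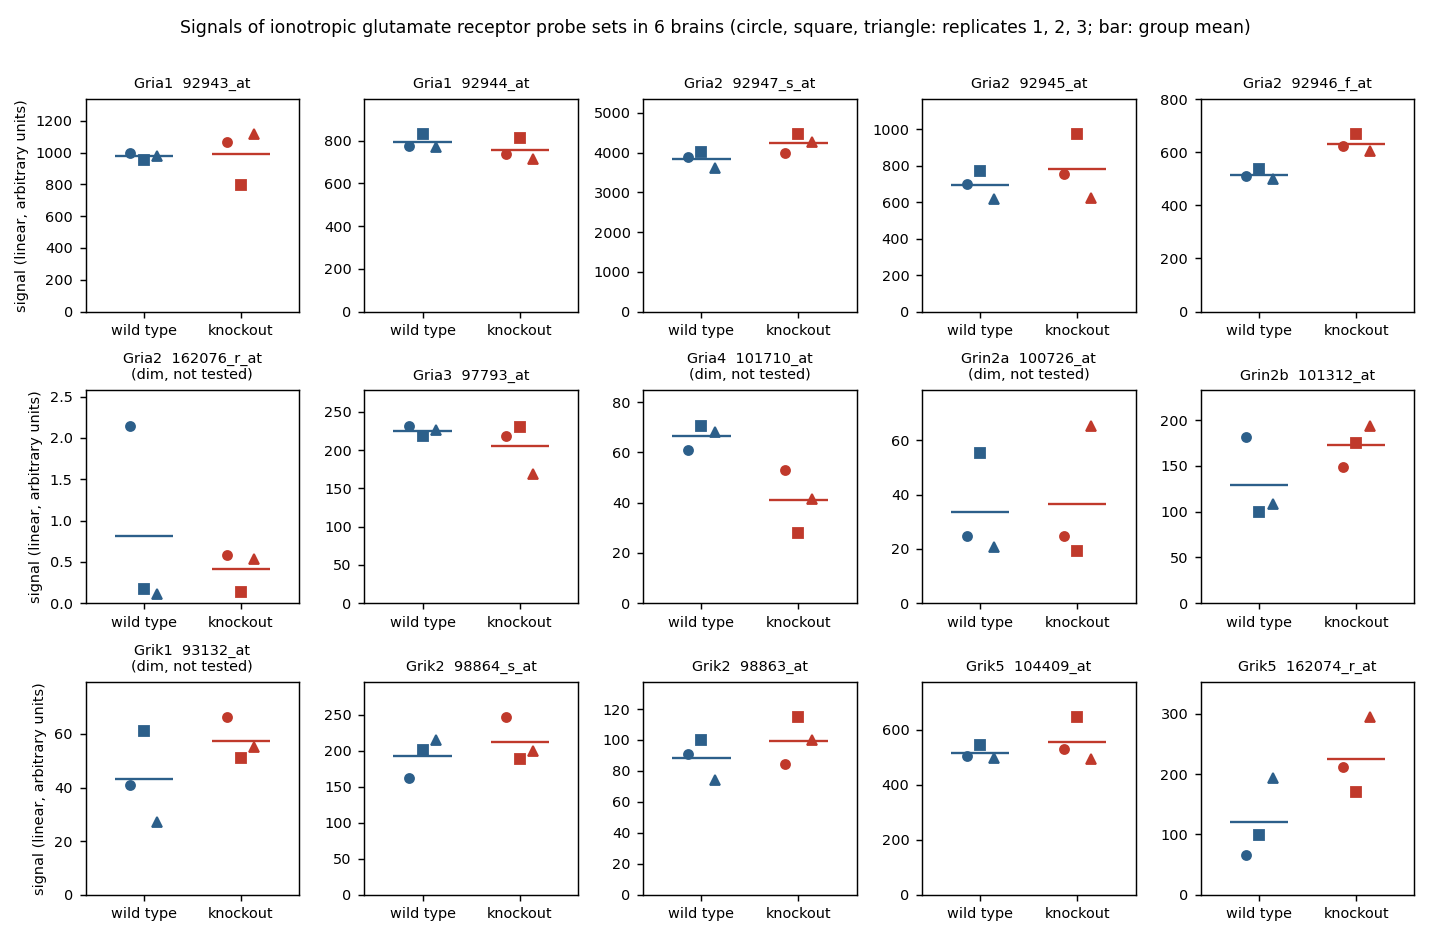
Each panel plots the linear signal (arbitrary units, axis from 0) of 1 receptor probe set in the 3 wild-type (blue) and 3 knockout (red) animals, with circles, squares and triangles for replicates 1, 2 and 3 and a bar at the group mean. The groups are apart for Gria2 92946_f_at, which is higher in knockout animals, and for the dim Gria4 101710_at, which is lower, and they overlap in the other 13 panels.

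Among the AMPA subunits, Gria2 was read by 3 bright probe sets, and all 3 had a higher mean in knockout brains. Probe set 92946_f_at read 622.1, 667.8 and 605.6 in knockout replicates 1, 2 and 3 and 511.5, 538.0 and 497.8 in the wild-type replicates. Every knockout animal lay above every wild-type animal. The log2 difference, knockout minus wild type, was 0.28 ± 0.08 (SE, n = 3 and 3), with a 95% interval of 0.10 to 0.47, and it did not pass (unadjusted p = 0.00728, adjusted p = 0.548 in limma). The suffix _f_at marks a probe set whose oligonucleotides may also match related transcripts.

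The brightest Gria2 probe set, 92947_s_at, read 3987, 4466 and 4264 in knockout against 3887, 4028 and 3622 in wild-type animals. Knockout replicate 1 lay just under wild-type replicate 2, so the groups overlapped. Its log2 difference was 0.14 ± 0.06 with a 95% interval of -0.01 to 0.29 (adjusted p = 0.728 in limma). The third, 92945_at, read 756.8, 972.3 and 622.1 against 701.1, 768.5 and 618.8, a log2 difference of 0.15 ± 0.15 (interval -0.20 to 0.50, adjusted p = 0.849 in limma). Knockout replicate 2, the animal with low cerebellar signal and the highest striatal and hippocampal and cortical sums, was the highest of the 6 on all 3 probe sets. Without it the log2 differences were 0.24 for 92946_f_at, 0.10 for 92947_s_at and -0.01 for 92945_at. So the direction held in the first pair and was lost in the last, and none passed (adjusted p 0.477 to 0.977 in limma). A further Gria2 probe set, 162076_r_at, read between 0.113 and 2.15 on every array and carries no measurable level.

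Gria1, the subunit best known for moving into synapses during plasticity, was read by a pair of probe sets and neither was apart between genotypes. Probe set 92943_at read 1067, 793.0 and 1116 in knockout against 1000.3, 951.1 and 978.9 in wild-type animals. The knockout animals lay on both sides of the wild-type range, with replicate 2 below it, and the log2 difference was 0.01 ± 0.12 (95% interval -0.27 to 0.28, adjusted p = 0.994 in limma). Probe set 92944_at read 738.1, 812.6 and 714.2 against 775.3, 830.7 and 770.3, a log2 difference of -0.07 ± 0.08 (interval -0.25 to 0.12, adjusted p = 0.872 in limma). Here knockout replicate 2 was the highest of the knockout animals. The probe sets therefore disagreed on this animal, and without it the log2 differences were 0.16 ± 0.07 and -0.12 ± 0.08, of opposite sign (adjusted p = 0.551 and 0.663 in limma).

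Gria3, the X-linked AMPA subunit, read 218.4, 229.8 and 169.0 in knockout against 231.7, 218.3 and 225.7 in wild-type brains. Knockout replicate 3, a 3-month-old animal, was low, and the other 5 animals lay within 218.3 to 231.7. The log2 difference was -0.13 ± 0.13 (95% interval -0.43 to 0.16, adjusted p = 0.849 in limma). It was -0.01 without that animal and -0.21 without knockout replicate 2.

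Gria4, an AMPA subunit abundant in the cerebellum and in some interneurons, was lower in every knockout animal than in any wild-type animal, at a dim signal. It read 53.1, 28.0 and 41.6 in knockout replicates 1, 2 and 3 and 61.0, 70.6 and 68.0 in the wild-type replicates. All 6 values lay under 72.2, the signal below which the mean of a probe set was too low for it to be tested. The share separated downward, 6.80%, covers tested probe sets only and not such dim ones. In a fit without that limit the log2 difference was -0.56 ± 0.22 (95% interval -1.06 to -0.06, adjusted p = 0.794 in limma). The lowest value was that of knockout replicate 2, whose 9 cerebellar markers had a median deviation of -2.11 (log2) from the wild-type mean. Without this animal, in a comparison added after the data were seen, the log2 difference was -0.39 ± 0.20 (adjusted p = 0.641 in limma). The other knockout animals, at 53.1 and 41.6, had cerebellar medians of -0.17 and 0.01. Summed signals of the myelin and astrocyte genes were lower in the same 3 knockout animals. The part of these genes, or of the cerebellar signal, in the Gria4 values was not tested.

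**Figure D2:**
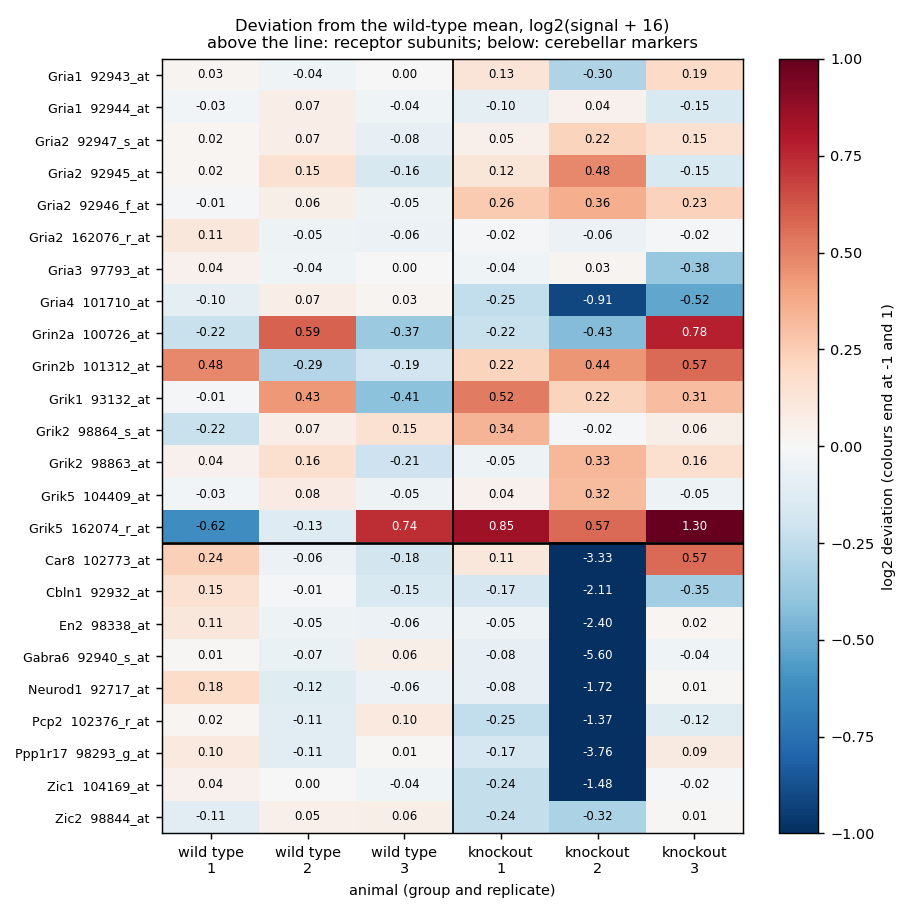
Each cell gives the deviation of 1 animal (column) from the wild-type mean for 1 probe set (row) on the scale log2(signal + 16), with receptor subunits above the line, cerebellar markers below it and colours that end at -1 and 1. Knockout replicate 2 has -5.60 for Gabra6 and -2.11 for Cbln1 and, among the receptors, -0.91 for Gria4 and 0.48 for Gria2 92945_at.

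Of the NMDA subunits, Grin2b, the subunit that prevails early in life and persists in the forebrain, had the widest range over the 6 arrays of the 6 tested genes, 0.86 on the log2 scale, when each gene is read by its brightest probe set. It read 149.0, 175.5 and 193.9 in knockout against 181.2, 99.3 and 108.2 in wild-type brains. Wild-type replicate 1 lay among the knockout animals, while the other wild-type animals lay below all of them. The log2 difference was 0.41 ± 0.21 (95% interval -0.06 to 0.88, adjusted p = 0.743 in limma). It was 0.65 without wild-type replicate 1, 0.26 without wild-type replicate 2 and 0.40 without knockout replicate 2, and it passed in none of these. Grin2a, the subunit that joins NMDA receptors as the brain matures, was dim and scattered, at 24.6, 19.3 and 65.3 in knockout against 24.8, 55.4 and 20.6 in wild-type animals. A fit without the signal limit gave a log2 difference of 0.04 ± 0.37 with an interval of -0.83 to 0.91, which leaves a change in either direction undetermined at this signal. Without knockout replicate 2 it was 0.28 ± 0.40.

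The 3 genes whose profile over the 6 arrays was most like that of Grin2b, by the smallest root mean square difference of centred log2 values, were Sys1 (0.155), Irf9 (0.157) and Map6 (0.158). These 3 were picked from all tested genes, and the measure rests on 6 values each.

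Among the kainate subunits, Grik5, which needs a partner subunit to form a channel, gave the largest difference of the 11 tested probe sets, on a probe set that a brighter one for the same gene did not match. Probe set 162074_r_at read 211.9, 171.3 and 294.3 in knockout against 66.3, 99.5 and 194.5 in wild-type brains. Wild-type replicate 3 lay above knockout replicate 2, so the groups overlapped, and replicate 3 was the highest animal of each genotype. The log2 difference was 0.91 ± 0.32 (95% interval 0.19 to 1.63, unadjusted p = 0.0194, adjusted p = 0.665 in limma), and it ranged from 0.60 without wild-type replicate 1 to 1.28 without wild-type replicate 3, with 1.08 without knockout replicate 2. The brighter probe set, 104409_at, read 530.1, 644.8 and 495.3 against 503.9, 545.0 and 496.2, a log2 difference of 0.10 ± 0.11 (interval -0.15 to 0.35, adjusted p = 0.854 in limma). Knockout replicate 2 was again the highest, and without it the difference was -0.01 ± 0.09. The suffix _r_at marks a probe set designed under relaxed rules, and the mean of both gave 0.51 ± 0.16 (adjusted p = 0.635 in limma).

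Grik2, a principal subunit of kainate receptors in hippocampus and cerebellum, had a higher mean in knockout brains on both of its probe sets, by less than the 95% intervals can tell from 0. Probe set 98864_s_at read 246.5, 188.4 and 200.3 in knockout against 162.2, 201.0 and 214.5 in wild-type animals, and 98863_at read 84.2, 114.6 and 99.9 against 90.9, 99.9 and 73.9. The groups overlapped on both, and the animals did not rank alike on them: knockout replicate 1 was the highest on the first and below 4 animals on the second. The log2 differences were 0.13 ± 0.14 (95% interval -0.20 to 0.45) and 0.15 ± 0.17 (-0.24 to 0.54). The first was 0.02 without knockout replicate 1 or wild-type replicate 1 and 0.20 without knockout replicate 2 or wild-type replicate 3. The second was 0.05 without wild-type replicate 3, 0.06 without knockout replicate 2, 0.23 without wild-type replicate 2 and 0.25 without knockout replicate 1. Grik1, dim in both groups, read 66.2, 50.9 and 55.0 against 40.9, 61.1 and 27.1, with a log2 difference of 0.35 ± 0.25 in the fit without the signal limit (interval -0.22 to 0.92, adjusted p = 0.851 in limma) and 0.41 ± 0.29 without knockout replicate 2.

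**Figure D3:**
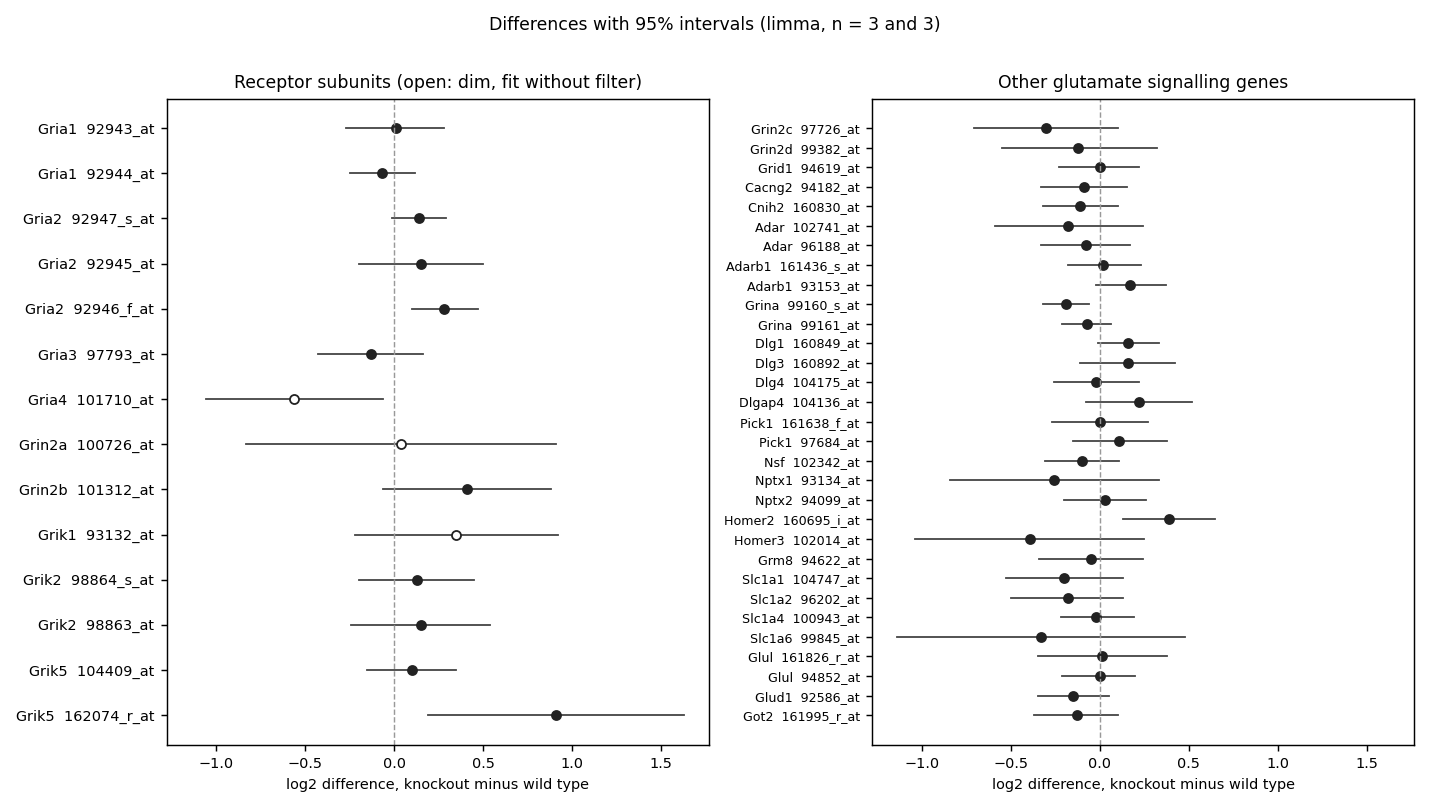
Points give log2 differences, knockout minus wild type, and lines their 95% intervals from limma (3 against 3 animals), for receptor probe sets on the left (open points: dim, from the fit without the signal limit) and the tested probe sets of other glutamate signalling genes on the right. Intervals lie wholly above 0 for Gria2 92946_f_at (0.10 to 0.47), Grik5 162074_r_at (0.19 to 1.63) and Homer2 (0.13 to 0.65) and wholly below 0 for Gria4 and 1 Grina probe set, and none of these passed after adjustment. Gria2 162076_r_at, with signals near 0, is not drawn.

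The balance between receptor subunits within an animal was compared as the log2 difference of their probe sets on 1 array, for pairs chosen after the values were seen. Gria1 92944_at minus Gria2 92947_s_at gave -2.41, -2.44 and -2.55 for knockout replicates 1, 2 and 3 against -2.30, -2.26 and -2.21 for the wild-type replicates. All 3 knockout values were lower, by 0.21 on average. The share of other pairs of probe sets that are apart in this way was not counted, and Gria2 was read by this probe set only. With the other Gria1 probe set in its place the values were -1.89, -2.47 and -1.92 against -1.94, -2.06 and -1.87, and the groups overlapped. Grin2b minus Grin2c gave -1.88, -0.88 and -1.37 against -1.68, -2.43 and -2.16, and the groups overlapped there too. These values depend on the probe sets and are not ratios of transcript numbers.

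The genotypes were also set side by side at each age. No receptor probe set had a genotype by age interaction with an adjusted p under 0.05 in limma, where 0.0268% of all tested probe sets did. At an unadjusted p under 0.05 there were 0 of the 11, against 5.70% of all tested probe sets. At 3 months there was 1 animal of each genotype. The log2 difference of Gria2 92946_f_at was 0.29 at 2 months and 0.27 at 3 months, and that of Gria4 -0.57 and -0.54. That of Grin2b was 0.24 and 0.76, and that of Gria3 -0.01 and -0.39. The 3-month-old animal had the lowest signal of its genotype on Gria2 92945_at and 92946_f_at, in both genotypes. The same order was seen on Gria1 92944_at and Grik5 104409_at. It was not seen on the brightest Gria2 probe set, 92947_s_at, where knockout replicate 1 was the lowest knockout animal. The share of all probe sets with this order was not counted.

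Further ionotropic subunits outside the set gave no call. Of 8 such genes 3 were read and tested, 0 were called in either direction in limma (0 at an unadjusted p under 0.05), and their median log2 difference was -0.12, against -0.002 over all 5665 tested genes. Of these 5665 genes, 3.11% had an unadjusted p under 0.05 and a higher knockout mean, 3.67% had such a p and a lower mean, and 5.74% were separated upward, which are the shares to set beside the lists that follow. Grin2c, the NMDA subunit of mature cerebellar granule cells, read 589.3, 337.0 and 524.8 in knockout against 616.3, 603.8 and 537.5 in wild-type brains. The low value was that of knockout replicate 2, and the log2 difference was -0.30 ± 0.18 with and -0.07 ± 0.10 without this animal. Grin2d had -0.12 ± 0.19, and 0.00 ± 0.20 without that animal. Grid1, of the delta class, had 0.00 ± 0.10 (95% interval -0.23 to 0.22).

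Genes that carry, anchor and edit the receptors gave no call in limma. Of 16 auxiliary and editing genes 5 were tested, with 1 higher and 4 lower means, a median log2 difference of -0.08 and 0 at an unadjusted p under 0.05. Cacng2, or stargazin, which brings AMPA receptors to the membrane, had -0.09 ± 0.11, and Cnih2, another AMPA receptor partner, -0.11 ± 0.09. Grina, a membrane protein named for an association with NMDA receptors, had -0.07 ± 0.06 by its brighter probe set. Its other probe set read 2708, 2618 and 2651 in knockout against 2892, 3050 and 3168 in wild-type animals, without overlap (-0.19 ± 0.06, adjusted p = 0.585 in limma). Adarb1, which edits the Gria2 transcript, had 0.02 ± 0.09 and 0.17 ± 0.09 by its probe sets. The groups overlapped on the brighter first one. The other read 694.0, 782.0 and 666.7 in knockout against 611.4, 630.9 and 649.2 in wild-type animals, without overlap (adjusted p = 0.743 in limma).

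Of 24 scaffold and trafficking genes 10 were tested, with 6 higher and 4 lower means, a median of 0.07, 0 called in limma and 1 at an unadjusted p under 0.05. That gene was Homer2, a scaffold of the postsynaptic density, with 250.7, 299.7 and 322.7 in knockout against 214.3, 221.9 and 214.1 in wild-type animals. The groups did not overlap, and the log2 difference was 0.39 ± 0.12 (adjusted p = 0.548 in limma). Dlg1, which binds the tail of Gria1, read 1377, 1452 and 1355 against 1322, 1280 and 1144, also without overlap (0.16 ± 0.08, adjusted p = 0.742 in limma). Dlgap4 had 0.22 ± 0.13, and 0.09 ± 0.11 without knockout replicate 2. Dlg4, or PSD-95, the main anchor of NMDA receptors, had -0.02 ± 0.10. Homer3 read 135.0 in knockout replicate 2 and 277.7 to 349.7 on the other arrays, and its log2 difference was -0.39 ± 0.28 with and -0.01 ± 0.13 without this animal. Dlg4, Homer3 and Adarb1 were named after their values were seen, as was Slc1a6 in the next group.

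Of 14 genes of glutamate transport and metabolism 7 were tested, and the mean log2 value of all 7 was lower in knockout brains. Over all 5665 tested genes, 49.2% had a higher mean. Among the 7, the log2 difference was 0 for Glul after rounding and -0.02 for Slc1a4. The median log2 difference was -0.15, with 0 called in limma and 0 at an unadjusted p under 0.05. Glud1, or glutamate dehydrogenase, had -0.15 ± 0.09, Slc1a1, a neuronal glutamate transporter, -0.20 ± 0.15, and Slc1a2, the main astrocyte transporter, -0.18 ± 0.14. Astrocyte marker genes had lower sums in the same 3 animals, and their part was not tested. Slc1a2 and Glul belong to that marker list too, so its sum is not separate from them. Slc1a6, the Purkinje cell transporter, read 166.1 in knockout replicate 2 and 428.9 to 535.1 elsewhere, and its log2 difference turned from -0.33 ± 0.36 to 0.19 ± 0.10 without this animal. Of 8 metabotropic receptors 1 was tested, Grm8, at -0.05 ± 0.13.

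**Figure D4:**
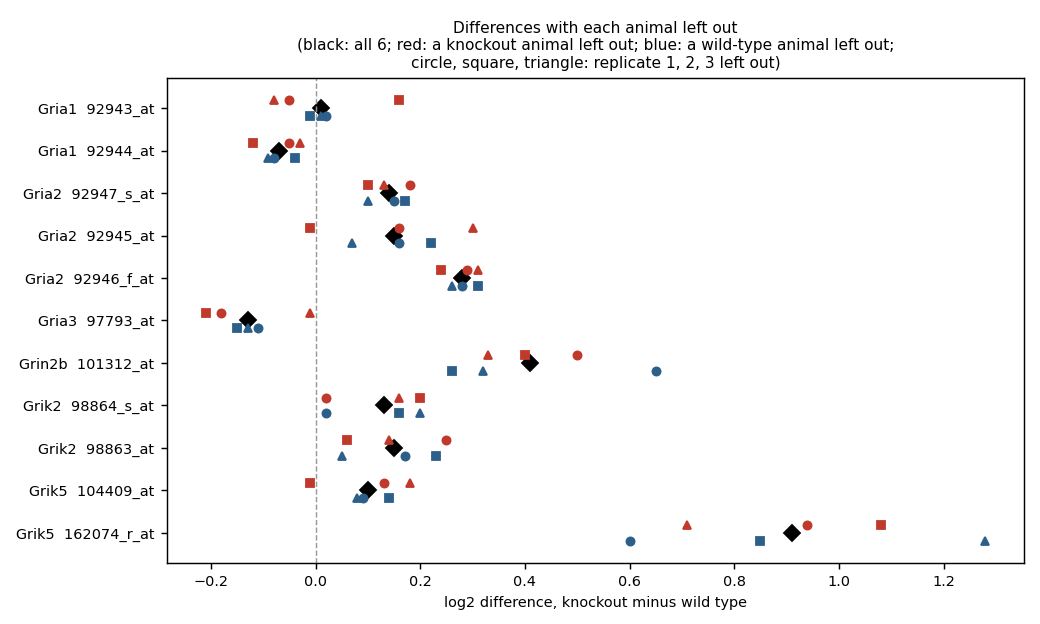
For each tested receptor probe set the black diamond gives the log2 difference, knockout minus wild type, over all 6 animals, and the small symbols give it with 1 knockout (red) or 1 wild-type (blue) animal left out. Without knockout replicate 2 (red square) Gria2 92945_at and Grik5 104409_at are at -0.01, while Gria2 92946_f_at stays between 0.24 and 0.31 whichever animal is left out.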

How the data were processed

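Biotinylated cRNA from total RNA was hybridised to Affymetrix arrays, and the submitters' processing notes name GCOS 1.4. The authors deposited linear signal intensities per probe set, 12488 per array. The algorithm and its settings were not given in the sources used here. Detection calls were not used. Trimmed means were nearly equal on all arrays, so a change in total RNA would be hidden.

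After removal of 66 control entries, 12422 probe sets were taken as log2(signal + 16), which understates differences of dim genes. The dimmest were set aside by their mean over all 6 arrays, with a limit at the 40th percentile (log2 6.46, or a signal of 72.2). The remaining 7453 were tested with limma 3.58.1 in R 4.3.3 (two-sided, without covariates, lmFit and eBayes with trend on) and Benjamini-Hochberg adjustment over all of them at 0.05. For lists, the brightest probe set stood for a gene. The array annotation gave 1 symbol for 10833 probe sets, 396 had several and 1193 none, and only the first kind was used. The procedure was tested on simulated data. Figures used matplotlib 3.10.9.

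The members and lists were chosen with earlier results of these data known. All member probe sets are named, with the 3 genes of lowest p in each pathway list, Grin2c, Grid1 and, as the widest-ranging member, the 3 genes nearest to Grin2b. Animals are separate individuals per the labels. Alternatives changed the model (a replicate block, an age term, array weights, eBayes without trend), the animals (the 2-month-old ones, or all but 1), the scaling (quantile, median), the pseudocount (1 or 64), the filter (off, or at the 60th percentile) and the unit (gene means).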

Additional observations from a re-analysis of the deposited data

Results flagged for a closer look

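The genotype difference of Grin2a 100726_at had opposite signs at 2 and 3 months, which was not tested because the probe set was too dim. The share of all probe sets with such a change of sign was not counted. At 2 months both knockout animals (24.6 and 19.3) lay below both wild-type animals (24.8 and 55.4), a log2 difference of -0.51. The values 24.6 and 24.8 were nearly equal. At 3 months the knockout animal (65.3) lay above the wild-type animal (20.6), a log2 difference of 1.15. Each value was under the signal limit of 72.2, and at 3 months there was 1 animal of each genotype.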

How the results depend on the processing

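Under all 18 alternatives 0 receptor probe sets passed, and 184 of 184 recomputed values of the 11 tested probe sets stayed short of the threshold. The number of receptor probe sets at an unadjusted p under 0.05 in limma, 2 in the main comparison, lay between 1 and 3. Over all probe sets 2 were called. This count was 1 with quantile normalisation, median centring, no filter, no intensity trend or gene means, 4 with array weights, and 1 to 3 with 1 animal left out. With the replicate block the receptor count was 0 and the count over all probe sets 2, and the block changed no receptor call. Deviations of same-numbered animals correlated at 0.01, 0.15 and 0.20, and the numbers were not taken to pair the animals, although replicate 3 shares an age of 3 months across genotypes and replicates 1 and 2 one of 2 months. The 3 knockout and 3 wild-type animals limit precision: standard errors of the 11 ran from 0.06 to 0.32 (log2), and the 4 dim probe sets give little information.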
